A study of Homo sapiens with 8 samples.

Results

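Peaks of CTCF-bound RNA were examined in 5 transcripts that encode secreted, non-collagen proteins of the extracellular matrix: DCN, EMILIN1, GAS6, HTRA1 and ADAMTS1. They were chosen by name with the peak lists of the study known, and all 5 carried a listed peak in both conditions. They are 5 of the 288 genes with a listed peak in either condition and 5 of the 28 with a peak in both. That they are listed is therefore no finding. For scale, 0.269% of the 20056 annotated protein-coding genes had a listed peak in proliferating cells and 1.15% in senescent cells. These gene counts did not use the strand of the peak.

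The study used eCLIP on IMR90 cells, which are primary human fibroblasts of the lung, of wild-type genotype in all groups. Ultraviolet light (400 mJ/cm2) linked proteins to the RNA they touched, the RNA was cut with RNase I, and an antibody against CTCF recovered the protein with its RNA. The 8 libraries formed 4 groups of 2. Untreated, proliferating cells gave a pair of eCLIP libraries and a pair of antibody-free inputs, and so did cells in which senescence, a lasting stop of division, had been induced by a treatment abbreviated as ICM in the labels. Cells came from isolates at passage 5, and the labels do not tie an isolate to a replicate. There was 1 peak list per condition, normalised to input. It was treated as the joint list of both eCLIP replicates, an assumption that rests on the name in the file, although each list was deposited under the first eCLIP replicate alone. No value per replicate was at hand, so no value below has an SD and no test between conditions could be run. Read depth was unknown, and RNA levels were not measured apart from the input, so the fibroblast label was not checked against marker genes. A more abundant transcript and a transcript bound more often cannot be told apart in these lists.

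The extracellular matrix is the protein network that fibroblasts secrete around themselves. Collagens form its fibres, proteoglycans and glycoproteins decorate and link the fibres, and secreted proteases cut and renew them. Senescent fibroblasts are known for a changed secretion that includes matrix proteins and proteases. DCN encodes decorin, a small leucine-rich proteoglycan that binds collagen fibrils. EMILIN1 encodes a glycoprotein found where elastin meets microfibrils. GAS6 encodes a vitamin K-dependent ligand of the receptor tyrosine kinases TYRO3, AXL and MERTK. HTRA1 and ADAMTS1 encode secreted proteases, a serine protease and a metalloprotease that cleaves proteoglycans.

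The proliferating list held 147 peaks and the senescent list 572. Peaks of the same strand that lay within 50 nt of each other were joined into sites, which gave 117 proliferating and 286 senescent sites. The 5 genes held 8 proliferating peaks, each a site of its own. They held 12 senescent peaks, which formed 5 sites, 1 in each gene. Within each gene all peaks lay on 1 strand, and no peak overlapped a second annotated gene. The peak strand matched the annotated strand of HTRA1 and GAS6, the 2 genes for which a strand was at hand. For the other 3 the peak strand was taken as the direction of the transcript. All positions are on build hg38, 1-based. Whether a site is exonic, intronic or in an untranslated region was not analysed here.

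In 4 of the 5 genes, DCN, HTRA1, GAS6 and ADAMTS1, a proliferating and a senescent site shared bases. EMILIN1 was the exception, with sites in both lists that did not touch. Among sites, 4 of the 8 proliferating sites shared at least 1 base with a senescent site, and 4 of the 5 senescent sites with a proliferating one. Over all sites these shares were 19.7% of the 117 proliferating sites (exact 95% interval 12.9% to 28.0%) and 8.04% of the 286 senescent sites (exact 95% interval 5.17% to 11.8%). The genes were picked from those listed in both conditions, which raises the count. Of all 28 genes listed in both, 75.0% had sites that overlapped, and of the 23 others 17 did.

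**Figure D1:**
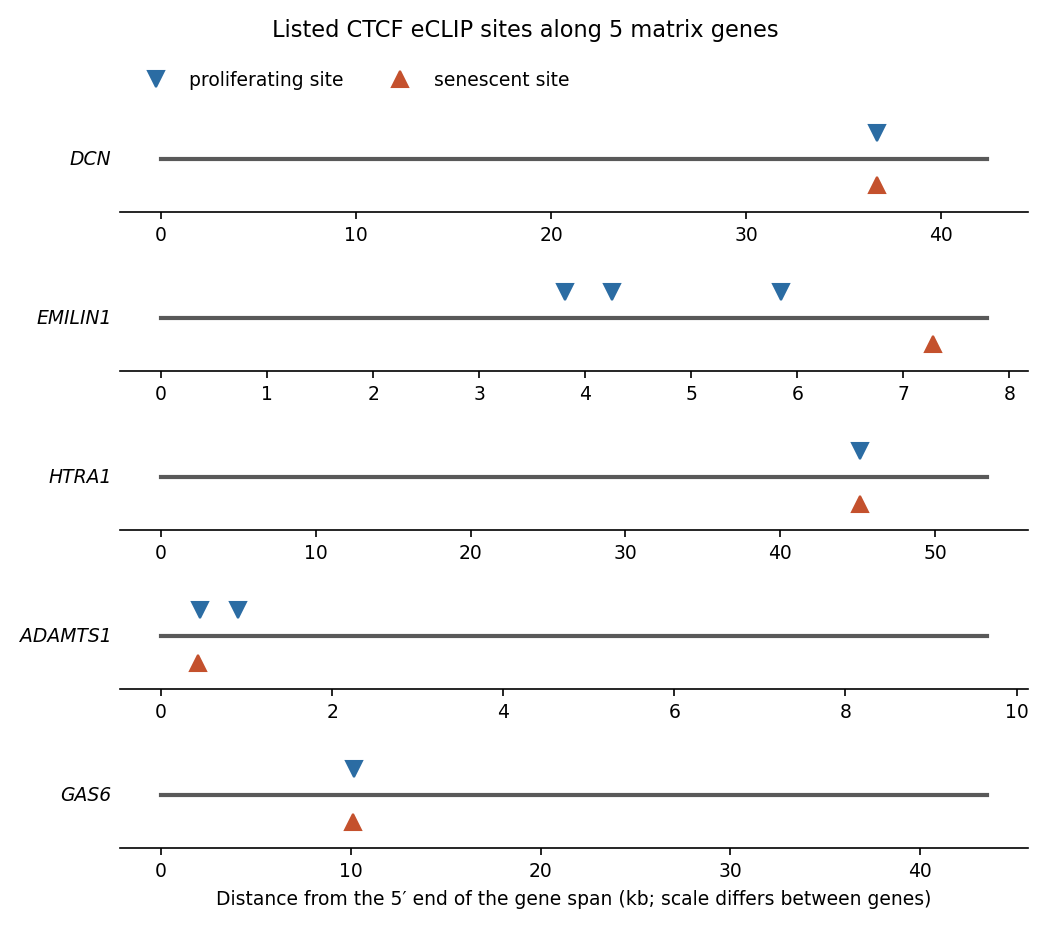
Each line is the annotated span of 1 gene, drawn from its 5′ end (kb, with a scale of its own for each gene), with proliferating sites above and senescent sites below, at their middle base. The sites of the lists coincide in DCN, HTRA1 and GAS6 and at 1 of the 2 proliferating ADAMTS1 sites, while the senescent EMILIN1 site lies 3′ of all 3 proliferating ones.

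The proteoglycan transcript DCN (chromosome 12, 91140484 to 91182817) had 1 proliferating peak at 91146069 to 91146133 on the minus strand. Its signal value, the authors' score of a peak after normalisation to input, was 3.44, and its -log10 p-value was 4.35. The senescent site at 91146074 to 91146157 was made of 3 abutting peaks. From 5′ to 3′ they were 75, 6 and 3 nt wide, with signal values of 4.89, 5.81 and 6.06. Their -log10 p-values were 25.0, 34.0 and 38.2. The score thus stepped up towards the 3′ edge, and the narrowest piece had the highest score and the lowest p-value. Among the 286 senescent sites the DCN site ranked 20th by signal value, the highest rank of the 5 genes, and 39th by p-value. In the proliferating list it ranked 61st of 117 by signal value and 106th by p-value. The senescent site lay at 86.7% of the gene span, 5632 nt before its 3′ end.

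The glycoprotein transcript EMILIN1 (chromosome 2, 27078615 to 27086403) had listed sites at different places in the lists. The proliferating peaks lay at 27082390 to 27082451, 27082827 to 27082904 and 27084439 to 27084485 on the plus strand. Their signal values were 3.21, 3.07 and 3.24, and their -log10 p-values 6.34, 6.58 and 5.93. The lowest signal value of any peak in the proliferating list was 3.0029, and the lowest -log10 p-value 3.0601. The 3 scores thus lay close to the lower end of that list. By signal value the 3 peaks ranked 85th, 102nd and 79th of 117 sites. The senescent site at 27085848 to 27085947 was 1362 nt further 3′ than the last of them. Its 3 abutting peaks were 87, 9 and 4 nt wide from 5′ to 3′, with signal values of 4.06, 4.34 and 4.31 and -log10 p-values of 18.0, 17.5 and 16.0. It lay 506 nt before the 3′ end of the gene span, at 93.5% of it, while the proliferating sites lay at 48.9%, 54.6% and 75.1%. Weak sites are left out of such lists, so a place with no listed peak is not shown to be unbound.

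The ligand transcript GAS6 (chromosome 13, 113820549 to 113864076) had 1 proliferating peak at 113853895 to 113853972 on the minus strand, with a signal value of 3.54 and a -log10 p-value of 5.37. The senescent site at 113853897 to 113854007 was made of a 107 nt peak and, after a gap of 1 nt on its 3′ side, a 3 nt peak. Their signal values were 4.05 and 5.23. Both were at 400, the ceiling of the -log10 p-value, which 13 of the 286 senescent sites reached. No other site of the 5 genes reached it. The site lay at 23.3% of the gene span, 10124 nt from its 5′ end. GAS6 thus had the lowest p-value of these genes in the senescent list, while its proliferating site ranked 97th of 117 by p-value.

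The serine protease transcript HTRA1 (chromosome 10, 122461553 to 122514907) had 1 proliferating peak at 122506718 to 122506750 on the plus strand, 33 nt wide. Its signal value of 4.42 was the highest proliferating score of the 5 genes and ranked 17th of 117 sites. Its -log10 p-value of 4.49 ranked 102nd. The senescent site at 122506681 to 122506757 had a 71 nt peak with a signal value of 5.44 and a 6 nt peak on its 3′ side with 5.29. Their -log10 p-values were 14.4 and 13.4. The site thus had a high score and a p-value near the middle of its list (71st by signal value and 120th by p-value of 286). It lay at 84.7% of the gene span, 8188 nt before the 3′ end.

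The metalloprotease transcript ADAMTS1 (chromosome 21, 26835755 to 26845409) had sites near its 5′ end in both lists. Its 2 proliferating peaks on the minus strand were 395 nt apart. The one nearer the 5′ end, at 26844922 to 26844998, had a signal value of 3.47 and a -log10 p-value of 15.8. The other, at 26844498 to 26844526, had 3.35 and 12.9. The senescent site at 26844928 to 26845030 covered the first of these places alone, with a 98 nt peak of signal value 3.51 and a 5 nt peak of 3.88 on its 3′ side. Their -log10 p-values were 84.9 and 78.9. The middle of the senescent site lay 430 nt from the 5′ end of the gene span, at 4.45% of it. ADAMTS1 had the lowest senescent score of the 5 genes, 234th of 286 sites, and the second lowest p-value, 16th of 286.

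The senescent sites lay at different places along the gene spans, and such places were not computed for the other senescent sites. The senescent sites of DCN, HTRA1 and EMILIN1 lay between 84.7% and 93.5% of the gene span, and those of ADAMTS1 and GAS6 at 4.45% and 23.3%. These shares do not form 2 classes by distance. EMILIN1 was 506 nt before the 3′ end, but DCN 5632 nt and HTRA1 8188 nt. ADAMTS1 was 430 nt from the 5′ end and GAS6 10124 nt.

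**Figure D2:**
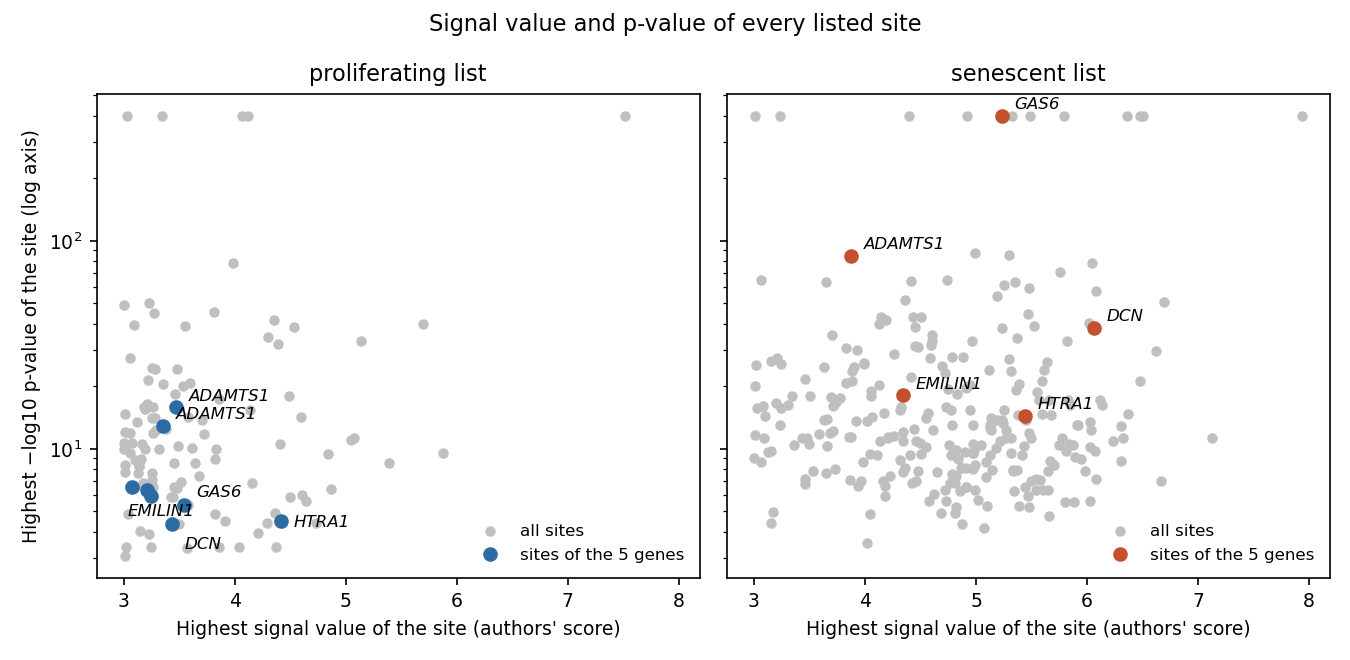
Every site is plotted by its highest signal value (authors' score) against its highest -log10 p-value (log axis), with proliferating sites on the left and senescent sites on the right. The sites of the 5 genes sit low on the p-value axis in the proliferating list, apart from the 2 of ADAMTS1, and spread from 14.4 to the ceiling of 400 in the senescent list.

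Signal value and p-value ordered these genes differently. By senescent signal value the order was DCN (6.06), HTRA1 (5.44), GAS6 (5.23), EMILIN1 (4.34) and ADAMTS1 (3.88). By senescent -log10 p-value it was GAS6 (400), ADAMTS1 (84.9), DCN (38.2), EMILIN1 (18.0) and HTRA1 (14.4). The order by senescent signal value depended on narrow peaks. The highest values came from peaks of 3 nt in DCN and GAS6, 9 nt in EMILIN1 and 5 nt in ADAMTS1. By the widest peak of each site the signal values were HTRA1 5.44, DCN 4.89, EMILIN1 4.06, GAS6 4.05 and ADAMTS1 3.51. In the proliferating list the order by signal value was HTRA1 (4.42), GAS6 (3.54), ADAMTS1 (3.47), DCN (3.44) and EMILIN1 (3.24), and of the 5 genes ADAMTS1 alone had sites with a -log10 p-value above the median of the list. Apart from HTRA1, these proliferating signal values lay between 3.24 and 3.54, in a list whose lowest value was 3.0029. The lowest signal value of the senescent list was 3.0047. Neighbours in these orders cannot be told apart, since no spread between replicates was given. Of the 8 proliferating sites 3 were above the median signal value of their list (3.45) and 2 above its median -log10 p-value (10.0). Of the 5 senescent sites 3 were above the median signal value (4.82) and 5 above the median -log10 p-value (12.4).

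The highest signal value was a larger number in the senescent list for all 5 genes, which was also so for 85.7% of the 28 genes listed in both conditions. The -log10 p-value was larger in the senescent list for all 5 genes as well, against 82.1% of the 28. The lists were normalised separately and on a scale that was not stated, so these are values side by side and not a measured rise.

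The 4 shared sites had a common shape. The senescent site was wider in each: 84 against 65 nt in DCN, 77 against 33 nt in HTRA1, 111 against 78 nt in GAS6 and 103 against 77 nt in ADAMTS1. The added width lay on the 5′ side. There the senescent site began 24 nt earlier in DCN, 37 nt in HTRA1, 35 nt in GAS6 and 32 nt in ADAMTS1. The 3′ edges lay close together: the senescent site ended 5 nt earlier in DCN, 2 nt earlier in GAS6, 6 nt earlier in ADAMTS1 and 7 nt later in HTRA1. The proliferating peak of HTRA1 lay wholly inside the senescent site, and in the other 3 genes 92.2% to 97.4% of its bases did.

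**Figure D3:**
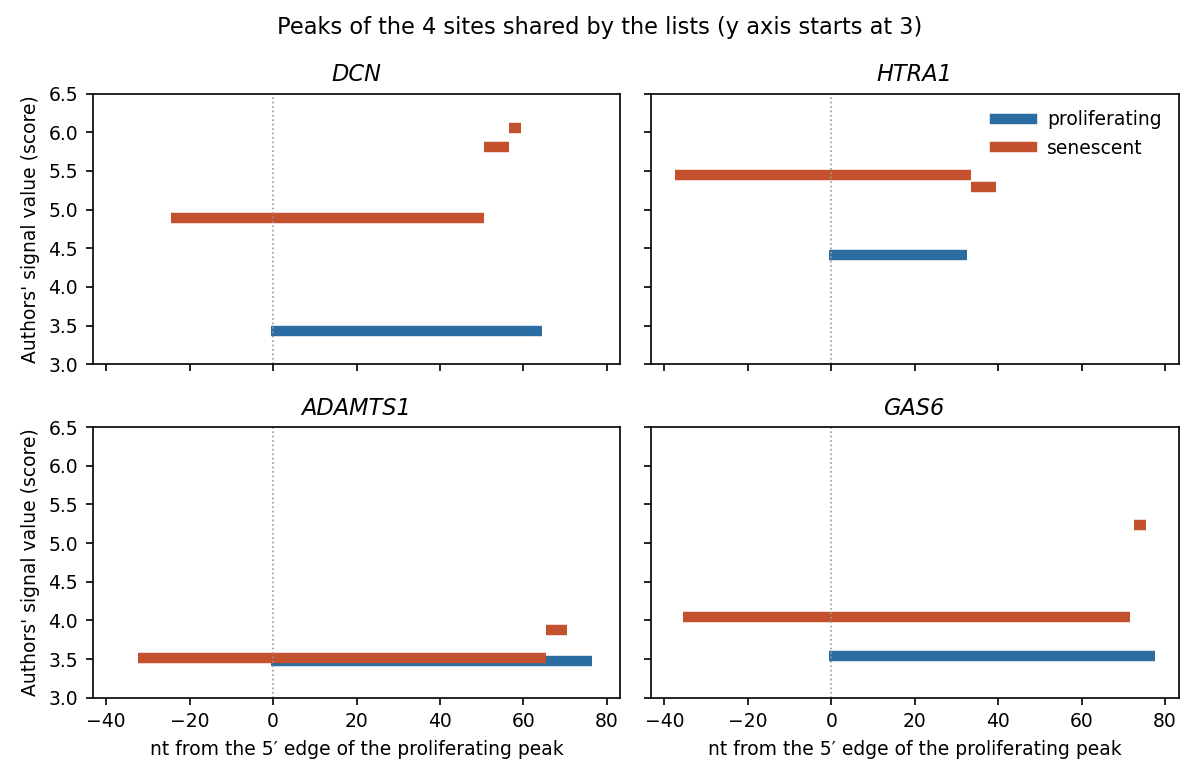
Each bar is 1 peak of a shared site, placed along the transcript in nt from the 5′ edge of the proliferating peak and at the height of its signal value (authors' score, axis from 3). In all 4 genes the wide senescent peak starts 24 to 37 nt further 5′, and a narrow senescent peak closes the site on the 3′ side.

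Over all 23 shared sites, 17 senescent sites were wider than their proliferating partner, 13 of them among the 19 pairs in other genes. A wider senescent site was thus common among shared sites. The median width of all sites was 71 nt in the senescent list and 53 nt in the proliferating list. Of the 23 senescent sites in these pairs, 78.3% began further 5′ than their proliferating partner. For the 19 pairs in other genes the median shift of the 5′ edge was 6 nt (range -13 to 44 nt), against 33.5 nt in the 4 pairs here. An earlier start by more than 20 nt with 3′ edges within 10 nt was seen in 4 of 4 pairs here and in 4 of the 19 others (KIF5B, COL6A2, DST and NIBAN2), together 34.8% of the 23. These limits were set after the values had been seen, and the difference was not tested. The 3′ edges were within 10 nt in 18 of the 19 other pairs too, so a common 3′ edge was general.

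**Figure D4:**
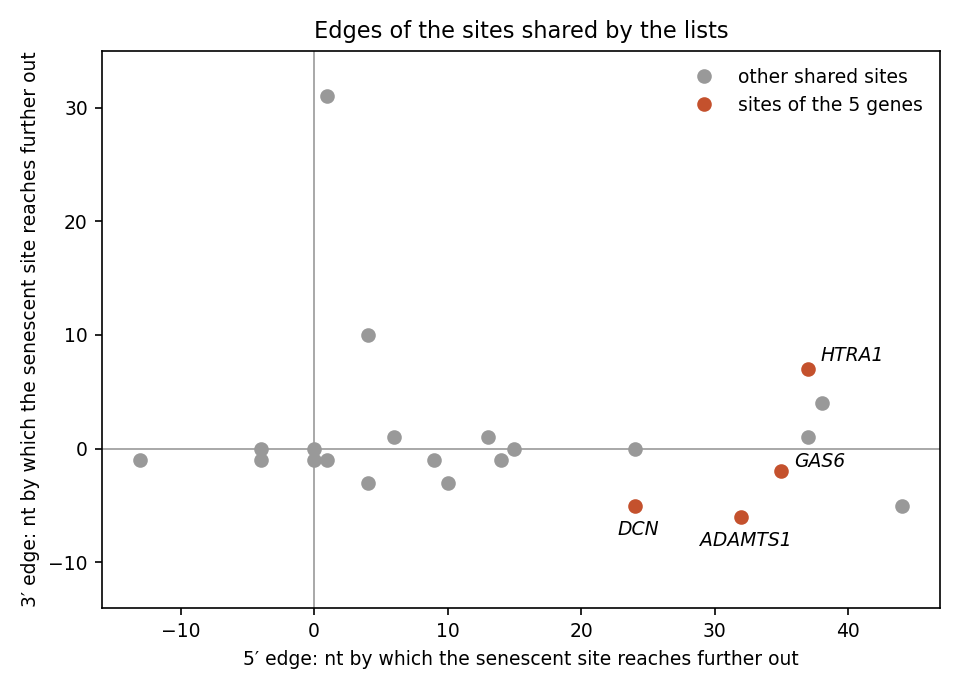
Each point is 1 of the 23 pairs of shared sites, with the nt by which the senescent site reaches further out than the proliferating site at its 5′ edge (x axis) and at its 3′ edge (y axis). The 4 labelled pairs lie between 24 and 37 nt on the x axis and between -6 and 7 nt on the y axis.

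The senescent sites of all 5 genes were also divided in the same manner. The widest peak lay at the 5′ end and the narrowest at the 3′ end in 5 of 5, and the widest peak took 87.0% to 96.4% of the site. Of the 202 senescent sites of several peaks in the whole list, 88.6% had the widest peak at the 5′ end and 92.6% the narrowest at the 3′ end, so this order was general in the list. The 3′ piece had a higher signal value than the 5′ piece in 4 of the 5 genes, against 74.8% of the 202 sites. In HTRA1 it was lower, 5.29 against 5.44. The steps were 1.17 in DCN, 1.18 in GAS6, 0.37 in ADAMTS1 and 0.26 in EMILIN1.

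The matrix transcripts were then placed among a list of 83 matrix and matrix-remodelling genes, drawn up by function, with earlier results of these data known. Its counts are a description. Of the 78 that are not among the 5 genes, 2 had a proliferating peak, 7 had a senescent peak and 0 had both, while 69 had none. Of all protein-coding genes 0.269% and 1.15% were listed. The part of RNA abundance in this was not tested. Among the other proteoglycans HSPG2, which encodes perlecan of basement membranes, had 2 proliferating sites (signal values 3.24 and 3.23) and no listed senescent peak. Of the 40 other glycoprotein genes LTBP2, a latent TGF-beta binding protein, was listed in proliferating cells alone (3.25). The senescent list alone held NID2, a basement membrane linker (5.19), PXDN, a matrix peroxidase (3.58), TGFBI (3.20) and the IGF-binding protein gene IGFBP5 (3.01). Of the 30 other remodelling genes 3 were listed, all in senescent cells alone: the crosslinking enzyme TGM2 (5.48), the lysyl oxidase LOXL2 (4.73) and the lysyl hydroxylase PLOD1 (3.66). The IGFBP5 peak was 2 nt wide and at the ceiling of the p-value with a score just above the lowest listed. The scores given for TGFBI, PXDN and TGM2 came from sites 6, 7 and 23 nt wide. That of LOXL2 came from a site of 1 peak, 73 nt wide. Those of NID2 and PLOD1 came from sites of 67 and 83 nt made of 4 and 3 peaks. The width of the peak that gave the score is not reported here for NID2 and PLOD1. The TGM2 and LOXL2 sites with these scores had -log10 p-values of 5.27 and 5.64. LOXL2, PXDN and TGM2 each had another senescent site with a lower score. In LOXL2 it was 153 nt wide (signal value 3.90, -log10 p-value 24.7). In PXDN it was 109 nt wide (3.48 and 11.3), and in TGM2 19 nt wide (5.47 and 5.96).

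By highest signal value in both lists, each of the 5 genes was set beside the other 27 genes listed in both. The measure was the sum of the absolute differences over the 2 lists. For DCN and GAS6 the senescent value used was that of a 3 nt peak. The nearest to DCN were FLNC (0.58) and HNRNPD (0.69), to EMILIN1 NIBAN2 (0.38) and ENO1 (0.47), and to GAS6 RANGAP1 (0.27) and FLNC (0.51). HTRA1 was nearest to EEF2 (0.07) and NSD2 (0.40), and ADAMTS1 to MYH9 (0.17) and MYLK (0.26). None of the 5 was among the 2 nearest genes of another of the 5. With 27 candidates for each gene, this was not set against an expected number and is a description.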

How the data were processed

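Per the file headers, the authors deposited input-normalised narrowPeak lists on build hg38, 1 per condition. The deposited signal value is a score whose scale, linear or log2, is not stated. The deposited -log10 p-value of each peak is taken as against input and stops at 400. The aligner, peak caller, removal of duplicates, rule for joining replicates and thresholds are not given in the sources used here. Genes came from RefSeq's table for GRCh38.p14 (59792 genes). Peaks were assigned to genes by position alone, without regard to strand. Gene counts over the whole lists may thus include peaks on the strand opposite to the gene. A peak over several genes went to a small RNA, then a protein-coding, then a lncRNA gene, the shorter first. Peaks were joined within 50 nt on 1 strand, and sites sharing at least 1 base were called shared. Signal values and p-values were ranked within a list; between lists, positions, widths and edges of sites were compared, and scores were set side by side without a test. Exact intervals are Clopper-Pearson at 95% and reflect counting error alone. Work was done in Python 3.11.15 with pandas 2.3.3 and SciPy 1.17.1. On simulated lists of 200 sites, 60 of 60 shared sites and their edges were recovered. The simulated sites lay far apart and their peaks abutted. This checks the code alone and does not cover gaps within a site, as in GAS6. No test was run, since no value per replicate was at hand. The 5 genes, the matrix list and the naming rule (the 5 genes, every listed gene of the matrix list, and the 2 genes nearest in score to each of the 5) were chosen with earlier results of these data known. KIF5B, COL6A2 and DST were named after their values were seen. Alternatives changed the merging distance, the peaks kept, the strand rule for joining and comparing sites, and the overlap required. None changed the assignment of peaks to genes. Peak sequences were not used here.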

Additional observations from a re-analysis of the deposited data

How the results depend on the processing

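The counts depended on weak proliferating peaks. When peaks under a -log10 p-value of 10 were dropped, the proliferating sites of the 5 genes fell from 8 to 2, both in ADAMTS1, the shared sites from 4 to 1 (ADAMTS1), and the listed matrix genes of proliferating cells from 7 to 2, while all 5 genes kept a senescent site. When the 50% of peaks with the lower signal values were dropped from each list, 2 proliferating and 3 senescent sites were left, 2 sites were shared (GAS6 and HTRA1), and 2 proliferating and 6 of 12 senescent matrix genes were listed. Both settings only remove peaks from the lists. Requiring 50% of both sites left 3 shared sites, without HTRA1. Merging distances of 0 and 100 nt, no strand rule and a distance of up to 100 nt between sites left 4 shared. Without joining across gaps, GAS6 had 2 senescent sites. Taking the median peak of a gene in place of the highest changed 7 of the 10 signal values, the most in GAS6 (senescent, from 5.23 to 4.64). Placing senescent sites by their highest peak moved none by 1 percentage point of the gene span. Unknown depth limits how many weak sites a list can hold. No paired analysis was possible because neither file splits its values by replicate, which also prevented leaving out each replicate.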
